A study of Mus musculus with 15 samples.

Results

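The genes described here are Gamt, Gatm, Slc6a8, Ckb, Ckmt1 and Oat, 6 of the 40481 genes in the deposited count table, found by their symbols in all 15 libraries. RNA was sequenced from mouse RPE/choroid complex, which is the retinal pigment epithelium (RPE) with the vascular layer under it. The 8 INK-ATTAC libraries came from mice of genotype Abca1/Abcg1 flox/flox LysM-Cre with the INK-ATTAC transgene, a fusion of FKBP and caspase 8 driven by the p16Ink4a promoter. The 7 control libraries came from mice of the same floxed and LysM-Cre genotype without that transgene. Abca1 and Abcg1 encode cholesterol efflux transporters, and LysM-Cre acts in myeloid cells, so all groups carry that deletion background. All 15 libraries are labelled as given AP20187 intraperitoneally, the drug that dimerizes the fusion protein and kills cells using the promoter. The design text states injections on alternate days over 3 months for the INK-ATTAC mice. The question of the series is what removing p16Ink4a-positive senescent cells does to this tissue in mice with subretinal drusenoid deposits. The labels give no age and do not say whether each library is a separate animal, so p-values measure the spread between these libraries.

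Creatine is made in a pair of steps. Gatm, a mitochondrial amidinotransferase, joins arginine and glycine into guanidinoacetate and releases ornithine, and Gamt methylates guanidinoacetate to creatine with S-adenosylmethionine as the methyl donor. Slc6a8 carries creatine into cells across the plasma membrane. Ckb, the brain-type cytosolic creatine kinase, and Ckmt1, the ubiquitous mitochondrial creatine kinase, move phosphate between ATP and creatine. Oat, a mitochondrial aminotransferase, breaks down ornithine toward glutamate and proline. In humans, loss of OAT raises ornithine and causes gyrate atrophy of the choroid and retina, which is why ornithine is of interest in this tissue.

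Gamt was chosen by its p in the comparison of INK-ATTAC with control, where it ranked 10 among 17991 genes, and the other members were added for their place in the same pathway. Values of that comparison are therefore given as a description. All 6 members passed the filter on low counts. Total counts per library were 47954634 to 65065950 in INK-ATTAC and 39121503 to 59974025 in control libraries. The members had 367 to 967 counts per library for Gamt, 651 to 1648 for Gatm, 426 to 1568 for Slc6a8, 26450 to 56326 for Ckb, 1686 to 2740 for Ckmt1 and 28108 to 38484 for Oat. The RPE part of the tissue label was met by the RPE markers, of which 16 of 16 were detected. Rpe65 lay between 4489 and 7411 CPM (counts scaled to library size), Rgr between 27635 and 43161 CPM and Best1 between 1.09 and 4.57 CPM. The summed level of the 16 RPE markers was 81970 to 105640 CPM in INK-ATTAC and 74727 to 95754 CPM in control libraries. Endothelial markers, 12 of 12 detected, summed to 360.6 to 637.1 CPM in INK-ATTAC and 341.7 to 648.2 CPM in control libraries. Skeletal muscle markers, 18 of 18 detected, summed to 797 to 4071 CPM in INK-ATTAC and 324 to 2935 CPM in control libraries, and the 17 lens markers, of which 15 passed the filter on low counts, summed to 23.1 to 4355 CPM in INK-ATTAC and 21.8 to 894.6 CPM in control libraries. No gene of these lists stood at 0 in every library. In bulk RNA, fewer cells of a type and less RNA per cell cannot be told apart.

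The libraries also fall into a pair of classes by Xist, the RNA of the inactive X chromosome. Xist exceeded the summed CPM of the 4 Y-linked genes Ddx3y, Eif2s3y, Kdm5d and Uty in INK-ATTAC 5 to 8 and control 4 to 7, here called high Xist, and fell under it in INK-ATTAC 1 to 4 and control 1 to 3, called low Xist. Xist lay between 70.1 and 107.9 CPM in the 8 high Xist libraries, against 0.55 to 1.87 CPM in the 7 low Xist libraries. In the submitters' short library labels, the numbers 5 to 8 are all high Xist and the numbers 1 to 4 all low Xist, in INK-ATTAC and control alike. Sex and anything else those numbers mark therefore cannot be told apart.

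In the GENCODE M 21 annotation of GRCm38, Gamt lies on chromosome 10 from 80258151 to 80261012 on the minus strand and Gatm on chromosome 2 from 122594467 to 122611303 on the minus strand. Ckmt1 lies on the plus strand of chromosome 2 from 121357714 to 121363737, where its end overlaps Strc on the other strand. Slc6a8 lies on the plus strand of chromosome X from 73673150 to 73682502 and Ckb on the minus strand of chromosome 12 from 111669361 to 111672338. Oat lies on the minus strand of chromosome 7 from 132557478 to 132576398, inside an annotated span of Fgfr2 on the same strand. The strand setting of the counting is not given in the sources used here, so reads in the overlap of Ckmt1 and Strc cannot be assigned with certainty. For Oat and Fgfr2, which share a strand, no strand setting would separate the reads, and whether their exons overlap was not examined.

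The 250 bases upstream of the annotated start are shown for 3 members whose transcripts the results below turn on: Gamt for the group comparison, Ckb for the Xist comparison and Oat for its covariation with RPE markers. The sequences are from RefSeq (GRCm38.p6), which matched 5 of the 6 members, and run 5′ to 3′ on the strand of the gene. Capitals mark core promoter motifs, searched on both strands. The TATA box was searched with the letters TATAAA. The motif CCAAT is named by its own letters and reads ATTGG when it lies on the other strand. The GC box was searched with the letters GGGCGG and reads CCGCCC when it lies on the other strand.
Gamt promoter, chr10:80261013-80261262, minus strand: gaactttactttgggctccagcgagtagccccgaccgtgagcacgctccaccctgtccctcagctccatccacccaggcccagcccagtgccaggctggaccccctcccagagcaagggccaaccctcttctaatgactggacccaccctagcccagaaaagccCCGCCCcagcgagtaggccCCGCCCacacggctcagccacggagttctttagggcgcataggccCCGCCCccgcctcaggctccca
Ckb promoter, chr12:111672339-111672588, minus strand: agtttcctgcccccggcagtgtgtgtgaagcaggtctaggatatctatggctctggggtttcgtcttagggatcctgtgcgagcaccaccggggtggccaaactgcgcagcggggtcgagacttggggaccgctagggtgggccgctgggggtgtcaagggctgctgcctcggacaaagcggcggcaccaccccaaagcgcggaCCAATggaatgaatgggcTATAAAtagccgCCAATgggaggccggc
Oat promoter, chr7:132576399-132576648, minus strand: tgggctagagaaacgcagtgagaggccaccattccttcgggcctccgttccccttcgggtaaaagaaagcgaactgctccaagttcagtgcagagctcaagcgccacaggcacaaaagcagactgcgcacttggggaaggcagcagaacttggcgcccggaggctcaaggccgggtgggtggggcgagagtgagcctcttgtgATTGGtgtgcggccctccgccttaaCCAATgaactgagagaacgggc

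The Gamt window holds 3 GC boxes, all on the other strand, with their first letters 86, 67 and 22 bases before the start, and neither of the other motifs. The Ckb window holds 1 TATA box 28 bases before the start between a pair of CCAAT boxes at 46 and 16 bases. The Oat window holds 2 CCAAT boxes, at 47 bases on the other strand and at 22 bases on the gene's strand. No motif overlaps another. Of 32851 such windows, 12.4% hold the TATA box as searched, 33.8% hold CCAAT on either strand and 32.7% hold the GC box as searched. A match describes the letters of the window and does not show a site in use.

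Compared per length of exon, as CPM divided by the exon length in kilobases (RPKM), Ckb and Oat were far above the other 4 members, and the mitochondrial kinase Ckmt1 lay between them and the synthetic enzymes. Over the 15 libraries the median level was 329.7 RPKM for Ckb and 296.7 RPKM for Oat. It was 16.7 RPKM for Ckmt1, 7.84 RPKM for Gamt, 7.46 RPKM for Gatm and 3.30 RPKM for Slc6a8. Ckb was above Oat in 13 of 15 libraries and Gamt above Gatm in 10 of 15. The ranges of both pairs overlapped, and neither order held within every library. Oat was above Ckmt1 and Ckmt1 above Gamt in 15 of 15 libraries with no overlap of ranges, and Gatm was above Slc6a8 within each of the 15 libraries although their ranges overlap.

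**Figure D1:**
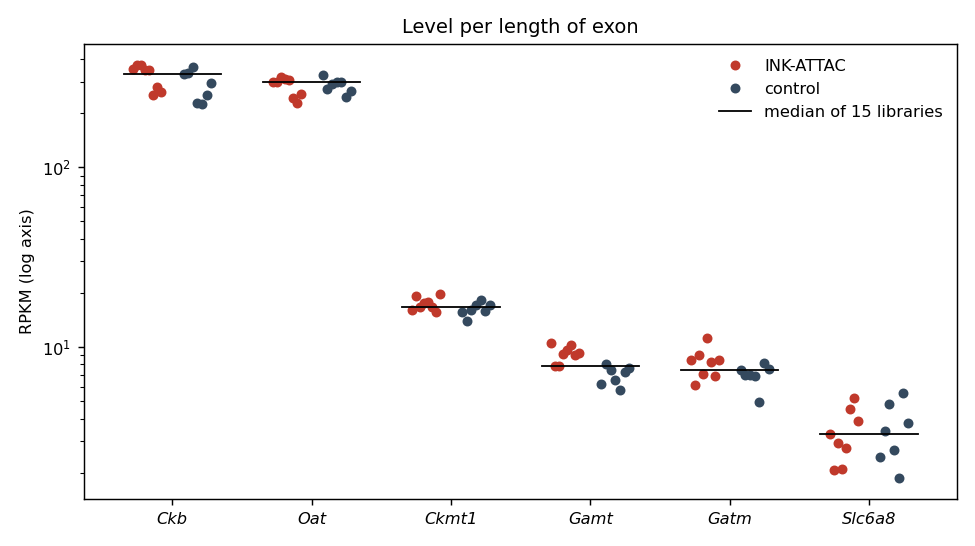
Level of each member per length of exon (RPKM, log axis) in 8 INK-ATTAC and 7 control libraries, with the median of all 15 as a line. Ckb and Oat, at medians of 329.7 and 296.7 RPKM, stand above Ckmt1 at 16.7 RPKM and above Gamt, Gatm and Slc6a8, which all lie under 12 RPKM.

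The members differed in how much they varied between libraries. Ckmt1 varied least, with an SD of 8.63% of its mean CPM and a highest library 1.40 times the lowest. Oat followed at 10.4% and 1.43 times. Ckb (17.3%), Gamt (17.4%) and Gatm (18.7%) were alike in SD. Slc6a8 varied most, with an SD of 34.6% of the mean and a highest library 2.98 times the lowest.

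The group comparison asks which transcripts differ once the INK-ATTAC transgene is present under the same drug. Gamt was the member with the clearest separation: it was 1.31-fold higher in INK-ATTAC libraries, yet neither it nor any other member passed the threshold over all genes. Gamt had a lowest, median and highest level of 11.3, 13.3 and 15.1 CPM in INK-ATTAC libraries, against 8.36, 10.5 and 11.7 CPM in control libraries. The groups overlapped slightly, since 6 of 8 INK-ATTAC libraries lay above the highest control and only control 2 lay within the INK-ATTAC range. Its means were 13.3 ± 1.42 CPM (SD, n = 8) in INK-ATTAC and 10.1 ± 1.19 CPM (SD, n = 7) in control libraries, and the log2 fold change was 0.39 (SE 0.09; edgeR quasi-likelihood test, adjusted p = 0.955).

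Gatm, the enzyme before Gamt in the pathway, had 18.5, 25.0 and 33.7 CPM as lowest, median and highest in INK-ATTAC libraries, against 14.8, 20.9 and 24.4 CPM in control libraries. In 5 of 8 INK-ATTAC libraries it was above the highest control, but 6 of 7 controls lay within the INK-ATTAC range, and the log2 fold change was 0.23 (SE 0.12). Slc6a8, the creatine transporter, had 10.8, 16.2 and 27.2 CPM in INK-ATTAC libraries, against 9.70, 17.8 and 28.9 CPM in control libraries. Both groups spanned nearly the same range, with a log2 fold change of -0.07 (SE 0.24).

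Ckb had a lowest, median and highest of 730.0, 1003 and 1079 CPM in INK-ATTAC libraries, against 651.9, 853.7 and 1052 CPM in control libraries. The groups overlapped over most of their range (log2 fold change 0.15, SE 0.12). Ckmt1 had 39.2, 42.7 and 49.1 CPM in INK-ATTAC libraries, against 35.01, 40.3 and 45.5 CPM in control libraries (log2 fold change 0.10, SE 0.07). Oat had 541.2, 701.2 and 750.4 CPM in INK-ATTAC libraries, against 583.6, 683.7 and 772.1 CPM in control libraries (log2 fold change -0.02, SE 0.08). For Ckmt1 and Oat alike, 6 of 7 controls lay within the INK-ATTAC range.

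**Figure D2:**
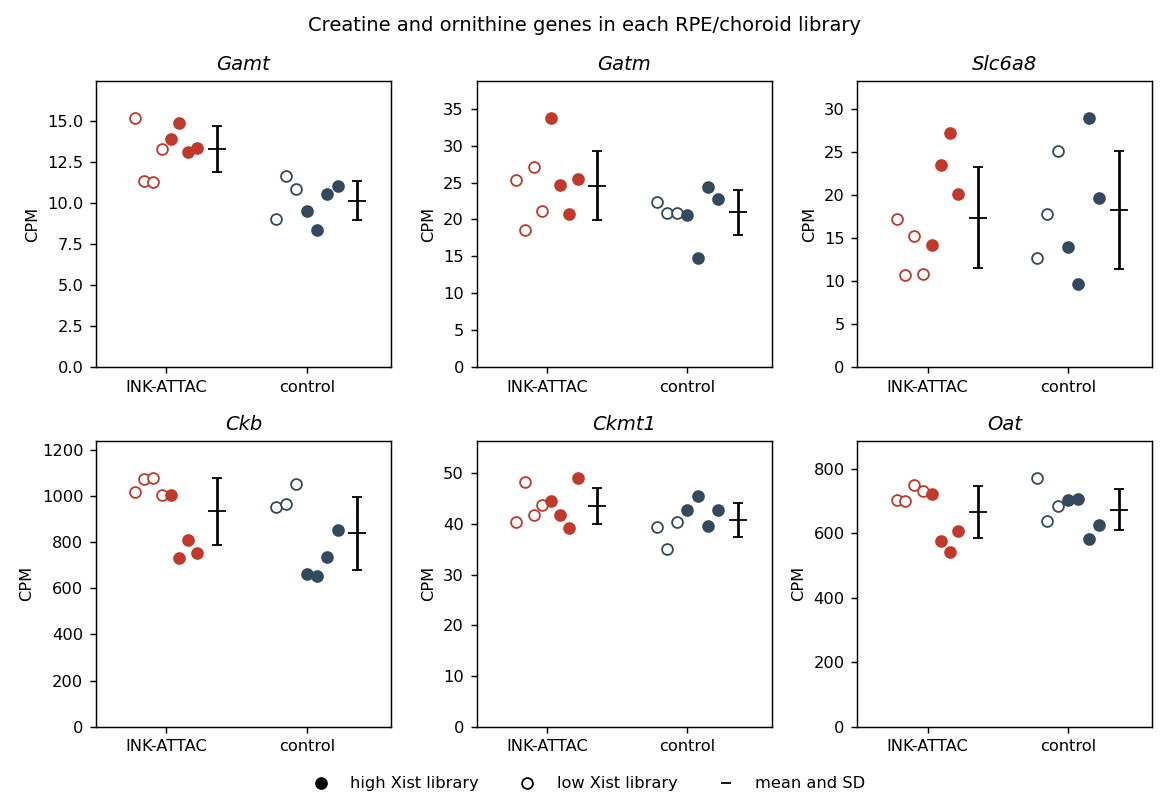
CPM of each member in each library, INK-ATTAC left and control right, with filled points for high Xist, open points for low Xist, and bars for the group mean and SD. Gamt is above the highest control in 6 of 8 INK-ATTAC libraries. For Ckb, 7 of 8 filled points lie below the lowest open point.

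By edgeR, 0 of 6 members passed an adjusted p of 0.05 between the groups, as did 0 of 17991 genes (0%), where no adjusted p was under 0.515. Without adjustment, 745 genes (4.14%) had a p under 0.05, 396 (2.20%) of them higher and 349 (1.94%) lower, as had 1 of 6 members, Gamt. DESeq2 passed 6 genes, limma-voom 0 and limma-voom with sample quality weights 2, with no member among them. The median log2 fold change of the members was 0.13, with 4 of 6 above 0, against -0.00097 over all genes, of which 49.8% were above 0. The counts of members and this median include Gamt, which was chosen by this comparison, so they add no support to a difference. No member had ranges that did not overlap between groups, a pattern seen in 4 genes (0.0222%). In the authors' deposited table, Gamt has a log2 fold change of 0.37 with 95% limits of 0.18 and 0.55 and an adjusted p of 0.606. The authors' deposited table has 0.19 for Gatm, -0.15 for Slc6a8, 0.11 for Ckb, 0.13 for Ckmt1 and 0.02 for Oat, and 3 of its 14442 genes (0.0208%) have an adjusted p under 0.05, with no member among them.

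The skeletal muscle markers had a mean level of 5.66 ± 0.74 log2 CPM in INK-ATTAC (SD, n = 8) and 4.78 ± 1.06 log2 CPM in control libraries (SD, n = 7), with ranges that overlapped. The lens level was 1.71 ± 2.31 log2 CPM in INK-ATTAC and 0.03 ± 1.61 log2 CPM in control libraries, and the RPE level was 10.45 ± 0.08 log2 CPM in INK-ATTAC and 10.46 ± 0.08 log2 CPM in control libraries. With the muscle level as a covariate the Gamt log2 fold change was 0.45, with the lens level 0.42 and with the RPE level 0.38. Over all 30 settings, leaving out each library in turn included, it lay between 0.34 and 0.45, with adjusted p between 0.0863 and 1.00.

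Within high Xist libraries the Gamt log2 fold change of INK-ATTAC against control was 0.48 (SE 0.13). There the means were 13.8 ± 0.79 CPM in INK-ATTAC and 9.86 ± 1.18 CPM in control libraries (SD, n = 4 each). Within low Xist libraries it was 0.28 (SE 0.14), at 12.7 ± 1.84 CPM in INK-ATTAC (SD, n = 4) and 10.5 ± 1.35 CPM in control libraries (SD, n = 3). Both values come from the difference that Gamt was chosen by and add no support to it. Slc6a8 had a log2 fold change of 0.23 (SE 0.30) within high Xist libraries and -0.46 (SE 0.32) within low Xist libraries. The same values were 0.34 (SE 0.17) and 0.11 (SE 0.18) for Gatm, 0.18 (SE 0.10) and 0.08 (SE 0.11) for Ckb, 0.03 (SE 0.09) and 0.19 (SE 0.10) for Ckmt1, and -0.10 (SE 0.10) and 0.05 (SE 0.10) for Oat. The test of the difference between the classes, edgeR's interaction of group and Xist class, passed 0 of 17991 genes (0%; 858 genes, or 4.77%, at an unadjusted p under 0.05, and 0 of 6 members). The members' adjusted p there was 0.876 to 0.899, so no difference between the classes was detected. The interaction was run in edgeR alone.

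The comparison of high with low Xist libraries, with group in the model, was not used to choose the members. Ckb was lower in high Xist libraries, and it was the single member to pass the threshold (1 of 6, against 0.178% of all genes). In all, 32 genes passed, 13 (0.0723%) higher and 19 (0.106%) lower. Ckb had a lowest, median and highest of 651.9, 744.9 and 1003 CPM in high Xist libraries, against 954.5, 1017 and 1079 CPM in low Xist libraries. All high Xist libraries but INK-ATTAC 5, at 1003 CPM, lay below the lowest low Xist library, so 7 of 8 were separated. The means were 775.1 ± 114 CPM (SD, n = 8) in high Xist and 1021 ± 50.3 CPM (SD, n = 7) in low Xist libraries. The log2 fold change was -0.39, a fold of 0.763 (SE 0.08; edgeR, adjusted p = 0.0468, rank 30 of 17991).

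Ckb had a negative log2 fold change within both groups, but did not pass the threshold within either (edgeR, adjusted p = 0.499 within INK-ATTAC and 0.324 within control). Within INK-ATTAC the log2 fold change of high against low Xist was -0.34 (SE 0.10), at 824.5 ± 124 CPM in high Xist and 1043 ± 39.1 CPM in low Xist libraries (SD, n = 4 each). Within control it was -0.45 (SE 0.11), at 725.8 ± 92.8 CPM in high Xist (SD, n = 4) and 990.3 ± 53.8 CPM in low Xist libraries (SD, n = 3). The call stands close to the threshold: leaving out 1 library kept it in 2 of 15 cases, without INK-ATTAC 5 or control 7, and ended it in the other 13, while the log2 fold change stayed between -0.45 and -0.36. Adding the lens level ended it (adjusted p = 0.255), as did the RPE level (0.330) and the rod level (0.0572), and DESeq2 kept it (0.00107).

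Marker levels were set beside the Xist classes without a test. The RPE marker level was 10.41 ± 0.07 log2 CPM in high Xist (SD, n = 8) and 10.51 ± 0.04 log2 CPM in low Xist libraries (SD, n = 7), and the lens level was -0.09 ± 1.35 log2 CPM in high Xist and 2.08 ± 2.35 log2 CPM in low Xist libraries. Endothelial markers were at 4.53 ± 0.44 log2 CPM in high Xist and 4.26 ± 0.38 log2 CPM in low Xist libraries. The ranges of all 3 lists overlapped between the classes. With the RPE level in the model, the Ckb log2 fold change was -0.37, and with the lens level also -0.37.

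The other members did not pass the threshold between the Xist classes. Oat had a lowest, median and highest of 541.2, 616.2 and 721.8 CPM in high Xist libraries, against 639.7, 702.4 and 772.1 CPM in low Xist libraries. High Xist libraries were below the lowest low Xist library in 5 of 8 cases, and the log2 fold change was -0.17 (SE 0.07; edgeR, adjusted p = 0.413). Over the 11 other settings this value ranged from -0.22 to -0.014, and leaving out 1 library from -0.21 to -0.14. Slc6a8, which lies on the X chromosome, had 9.70, 19.9 and 28.9 CPM in high Xist libraries, against 10.8, 15.2 and 25.1 CPM in low Xist libraries (log2 fold change 0.33, SE 0.23). The Slc6a8 value was 0.65 (SE 0.30) within INK-ATTAC and -0.04 (SE 0.32) within control libraries, and -0.35 with the RPE level in the model. Gamt had 8.36, 12.05 and 14.8 CPM in high Xist libraries, against 9.02, 11.3 and 15.1 CPM in low Xist libraries (log2 fold change 0.02, SE 0.09, with the sign turning under the muscle, lens, RPE and endothelial covariates). The log2 fold change was 0.07 for Gatm (SE 0.12) and 0.07 for Ckmt1 (SE 0.07). At an unadjusted p under 0.05, 2 of 6 members passed (Ckb and Oat), against 10.3% of all genes. No member had ranges that did not overlap between the classes, seen in 53 genes (0.295%). The median log2 fold change of the members was 0.05, with 4 of 6 above 0, against 0.01 over all genes, of which 53.0% were above 0.

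**Figure D3:**
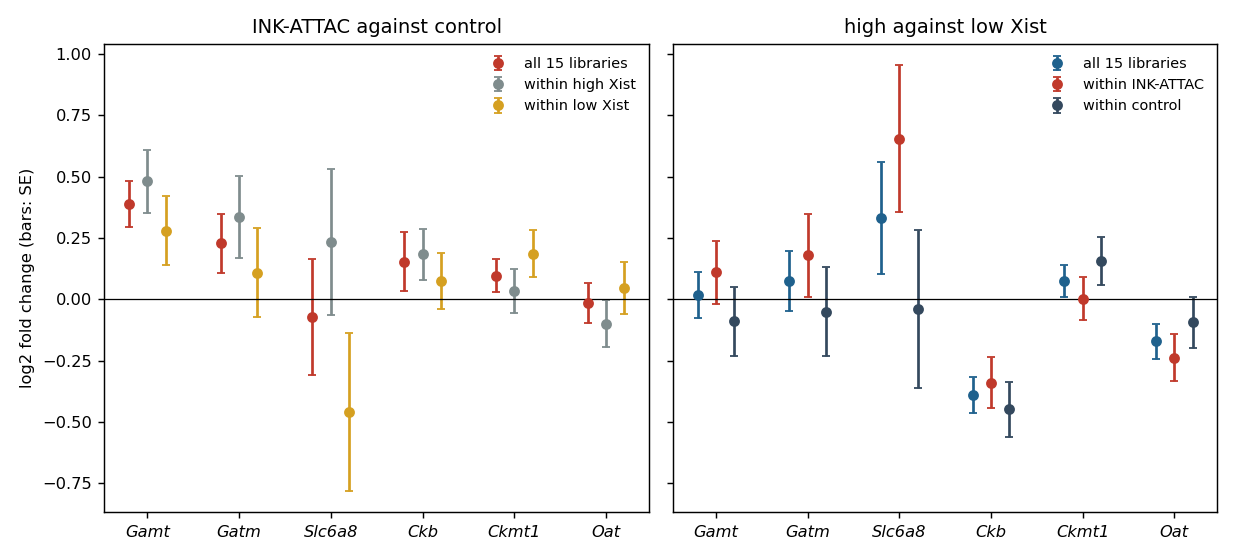
Log2 fold change of each member with its standard error, for INK-ATTAC against control (left) and high against low Xist (right), over all 15 libraries and within each subset. Gamt is above 0 in each subset on the left, at 0.48 and 0.28, and Ckb is below 0 in each subset on the right, at -0.34 and -0.45.

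Covariation was measured between libraries with the mean of each group subtracted, so that it does not use the group difference. Oat was higher in libraries with more of the RPE markers, while Slc6a8 was lower in those and higher in libraries with more of the endothelial markers. Of 57 relations among members and 7 marker lists, 6 had an adjusted p under 0.05 (two-sided permutation tests over 15 libraries), and all 6 involve Slc6a8, Oat or Gatm. Gamt, Ckb and Ckmt1 had none. INK-ATTAC 7 and control 6 had the lowest RPE levels (10.29 and 10.34 log2 CPM) and the highest endothelial levels (5.06 and 5.16 log2 CPM). The relation of these lists to each other was not tested. The calls of Slc6a8 and Oat with them, and with each other, therefore cannot be taken as separate.

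Oat correlated with the mean level of the RPE markers at r = 0.82 (p = 0.00036, adjusted p = 0.0108; rho = 0.81, p = 0.00084; permutation tests). It was 0.67 without control 6 and INK-ATTAC 7, the libraries farthest from the median RPE level. Within the high Xist class r was 0.96 (n = 8) and within the low Xist class 0.08 (n = 7), a difference between the classes that was not itself tested. The 3 lowest Oat levels, 541.2, 576.9 and 583.6 CPM, were in high Xist libraries INK-ATTAC 7, INK-ATTAC 6 and control 6, which also had the 3 lowest RPE levels.

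Slc6a8 correlated with the endothelial markers at r = 0.82 (p = 0.00038, adjusted p = 0.0108; rho = 0.81, p = 0.00094; permutation tests), 0.75 without control 6 and INK-ATTAC 2. Within the classes it was 0.95 for high Xist and 0.62 for low Xist libraries. Its correlation with the RPE markers was -0.75 (p = 0.00228, adjusted p = 0.0267; rho = -0.72, p = 0.00474; permutation tests), -0.58 without control 6 and INK-ATTAC 7, and -0.85 for high Xist and -0.88 for low Xist libraries. The one pair of members to pass was Slc6a8 with Oat, at r = -0.79 (p = 0.0009, adjusted p = 0.0171; rho = -0.77, p = 0.00118; permutation tests), -0.80 without control 5 and control 6. That pair gave -0.90 within the high Xist class and -0.42 within the low Xist class.

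Oat also correlated with the endothelial markers at r = -0.69 (p = 0.00432, adjusted p = 0.0410; permutation test), while its rho of -0.58 had an adjusted p of 0.231. Gatm correlated with markers of myelinating glia, such as Mbp, at r = 0.76 (p = 0.00234, adjusted p = 0.0267; rho = 0.79, p = 0.00127; permutation tests). That value was 0.80 without control 7 and INK-ATTAC 3, 0.80 for high Xist and 0.95 for low Xist libraries, and 0.79 within INK-ATTAC and 0.70 within control libraries. Gamt and Slc6a8 gave r = 0.62 (p = 0.0203, adjusted p = 0.165; permutation test), and Ckb with the RPE markers gave r = 0.60 (p = 0.0237, adjusted p = 0.169; permutation test), neither of which passed. With the means of both group and Xist class subtracted, 1 relation passed, Slc6a8 with the RPE markers (r = -0.86, adjusted p = 0.0154). Without INK-ATTAC 7, which has the lowest RPE level, 0 of 57 passed, and without INK-ATTAC 4 or INK-ATTAC 5, 3 passed. Leaving out each of the 15 libraries in turn ended the call of Oat with the endothelial markers in 12 cases. It ended those of Gatm with myelinating glia (without INK-ATTAC 2, 4, 5 or 7 or control 5) and of Slc6a8 with the RPE markers (without INK-ATTAC 2, 4, 5 or 7 or control 6) in 5 cases each, and the other 3 calls in 1 case each, without INK-ATTAC 7.

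**Figure D4:**
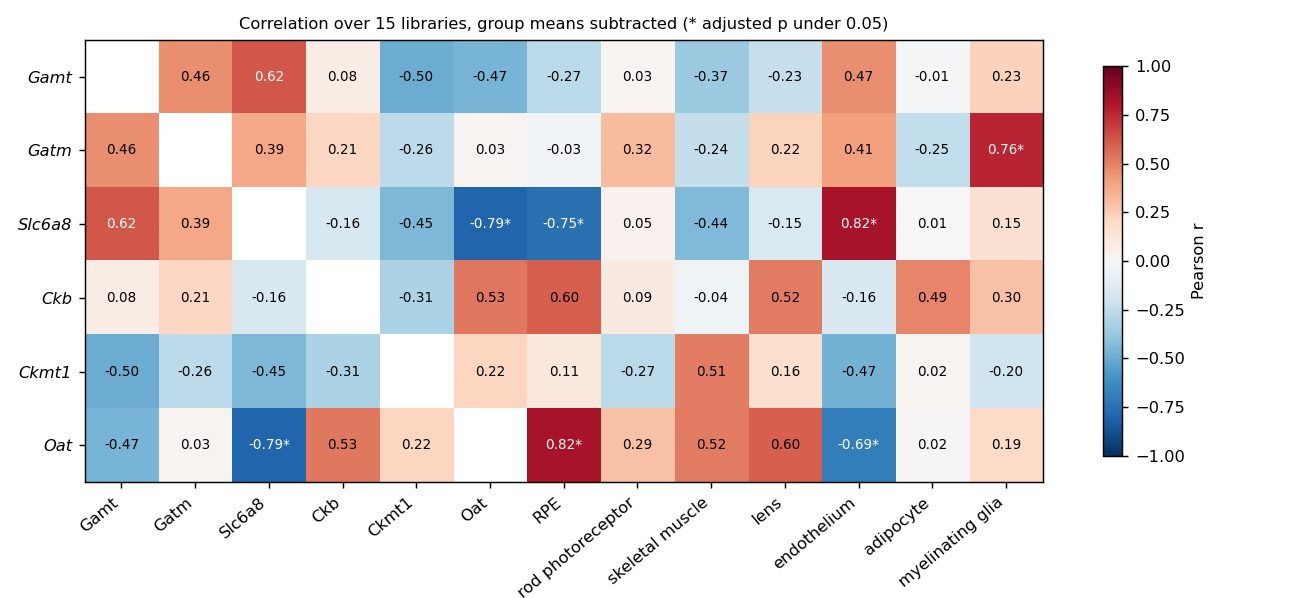
Pearson correlation of log2 CPM of each member (rows) with each other member and with the mean level of 7 marker lists (columns) over 15 libraries, group means subtracted, with an asterisk where the adjusted p is under 0.05. The asterisks stand on Slc6a8 with Oat (-0.79), on Oat and Slc6a8 with the RPE and endothelial lists, and on Gatm with myelinating glia (0.76).

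**Figure D5:**
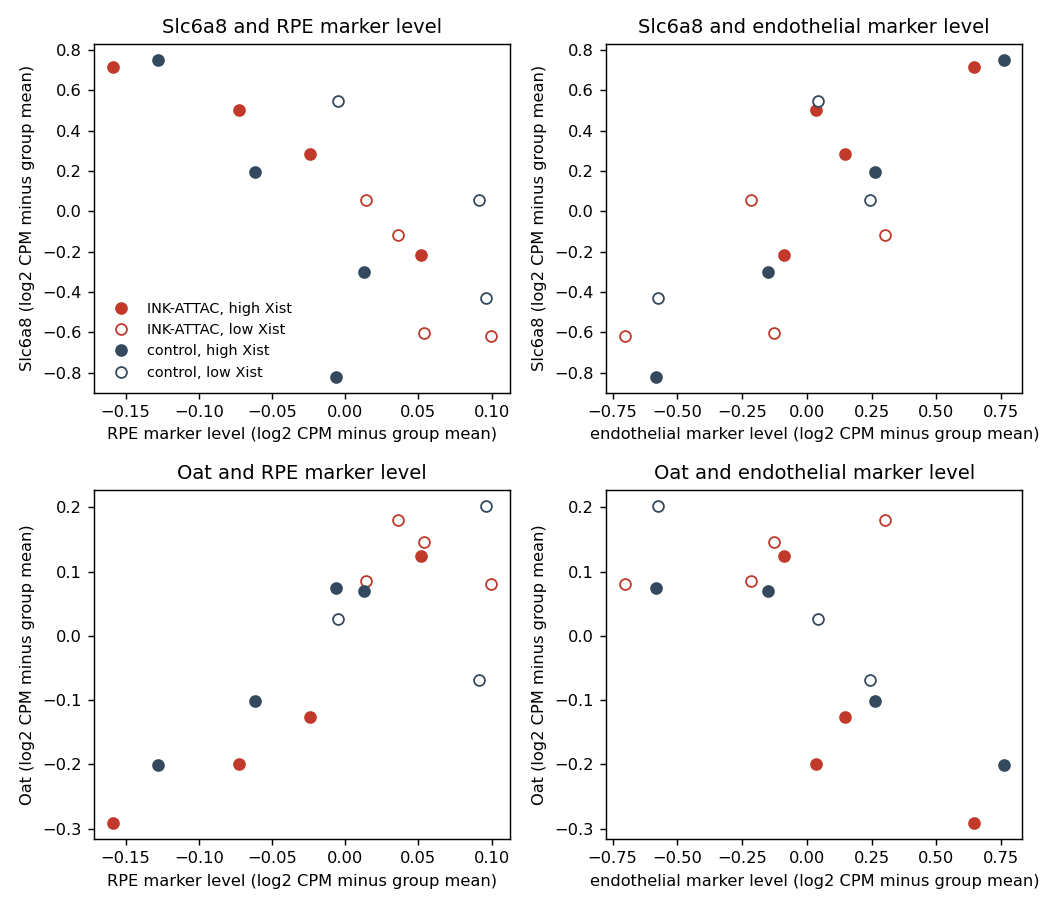
Slc6a8 (top) and Oat (bottom) against the RPE marker level (left) and the endothelial marker level (right), each as log2 CPM minus its group mean, 1 point per library. Slc6a8 is lower where the RPE level is higher (r = -0.75) and Oat is higher there (r = 0.82), and the directions are opposite for the endothelial level (r = 0.82 for Slc6a8 and -0.69 for Oat).

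The genes most like each member were taken as those of highest Pearson r with it over the 15 libraries, group means subtracted, among 12003 genes whose log2 CPM averaged 1 or more. They are descriptions, since the highest of so many correlations over 15 libraries is high by selection. For Gamt they were Gldn (0.87), Lrfn3 (0.86), Mfsd5 (0.84), Tpcn1 (0.84), Eva1b (0.84), Loxl2 (0.83), Dyrk2 (0.83) and Pacs2 (0.82). For Slc6a8 they were Chpf (0.98), Castor2 (0.98) and Sdc3 (0.97), and 27.0% of all eligible genes had an r above 0.5 with it. That share was 19.6% for Oat, 14.8% for Gamt, 9.48% for Ckb, 6.27% for Gatm and 3.29% for Ckmt1. For Oat they were Snap47, Pgk1 and Acadm (each 0.94), where Pgk1 is a glycolytic kinase and Acadm a dehydrogenase of fatty acid oxidation. Ckb was matched by Ddb1 (0.93), Apbb1 (0.93) and Cpt1a (0.91), the carnitine palmitoyltransferase that admits fatty acids to mitochondria. With Xist class means also subtracted these correlations were 0.81, 0.81 and 0.72. Gatm was matched by Sgcb (0.91), Tubb4a (0.85) and Cars (0.83), and Ckmt1 by Slc7a6os (0.84), Ccdc73 (0.82) and Mcat (0.78).

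The other genes of the pathway gave no call between the groups. Of 87 genes in 6 lists around the members, 77 were tested by edgeR, and 0 passed an adjusted p of 0.05 (0% of all genes did), with 39 above and 38 below 0 and a median log2 fold change of 0.00349. At an unadjusted p under 0.05, 6 were higher and 3 lower, against 2.20% and 1.94% of all genes. Between Xist classes 0 of 77 passed (0.178% of all genes did), with 1 higher and 13 lower at an unadjusted p under 0.05, against 5.09% and 5.25% of all genes, and 29 above and 48 below 0.

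Of the genes for other creatine kinases, adenylate kinases and creatine efflux, 6 of 7 were tested, with 4 above and 2 below 0. Ckm, the muscle creatine kinase, averaged 170.5 ± 99.4 CPM in INK-ATTAC and 80.1 ± 65.0 CPM in control libraries (SD, n = 8 and 7; log2 fold change 1.09, SE 0.49), and the part of the skeletal muscle markers given above in this value was not tested. As a share of the summed RPKM of the 4 creatine kinases Ckb, Ckmt1, Ckm and Ckmt2, Ckb had a lowest, median and highest of 60.0%, 67.4% and 87.5% in INK-ATTAC libraries, against 67.0%, 78.6% and 92.5% in control libraries. The share of Ckmt1 was 2.84% to 5.08% in INK-ATTAC and 3.20% to 5.86% in control libraries, and that of Ckm 3.77% to 17.97% in INK-ATTAC and 1.90% to 14.1% in control libraries. Ckmt2, the sarcomeric mitochondrial kinase, had a lowest, median and highest share of 3.80%, 15.3% and 19.2% in INK-ATTAC libraries, against 1.68%, 6.98% and 15.7% in control libraries. Each share depends on all 4 kinases: the log2 fold change between the groups was 0.15 (SE 0.12) for Ckb itself and 0.99 (SE 0.50) for Ckmt2. The part of the skeletal muscle markers in these shares was not tested either. The adenylate kinases Ak1 and Ak3 gave log2 fold changes of 0.30 (SE 0.11) and -0.15 (SE 0.06), both with an edgeR adjusted p of 1.00.

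Of the arginine and urea cycle genes, 14 of 19 were tested, with 4 above and 10 below 0. Slc25a15, which carries ornithine into mitochondria, averaged 16.8 ± 1.34 CPM in INK-ATTAC and 19.2 ± 1.99 CPM in control libraries (SD, n = 8 and 7; log2 fold change -0.19, SE 0.08; edgeR, adjusted p = 1.00). The tested genes of highest mean CPM, Ddah1 and Ddah2, which degrade methylated arginines, Asl, argininosuccinate lyase, and Nos1, a nitric oxide synthase, had log2 fold changes of 0.04 (SE 0.08), 0.07 (SE 0.14), 0.03 (SE 0.07) and -0.06 (SE 0.10). The 5 that were not tested, the urea cycle enzymes Otc, Cps1 and Nags among them, averaged under 1 CPM.

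Of the proline and glutamate genes, which take up the products of Oat, 10 of 11 were tested, with 5 above and 5 below 0. Prodh, proline dehydrogenase, gave a log2 fold change of 0.02 (SE 0.09), Glul, glutamine synthetase, -0.02 (SE 0.05) and Slc6a20a, a proline transporter, -0.04 (SE 0.11). Glul and Slc6a20a had median levels of 177 and 139 RPKM, under the 296.7 RPKM of Oat. All 16 polyamine genes, the other route from ornithine, were tested, with 9 above and 7 below 0. They included Oaz1 (0.05, SE 0.07) and Oaz2 (0.05, SE 0.08), the antizymes of ornithine decarboxylase, and Azin1 (-0.14, SE 0.10), the antizyme inhibitor. Sat1, which acetylates polyamines, gave -0.02 (SE 0.09) and Dohh, which completes hypusine, gave 0.19 (SE 0.08).

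Of the methyl cycle and methionine salvage genes, which supply the methyl donor of Gamt, 21 of 24 were tested, with 12 above and 9 below 0. Adi1, of the salvage route, averaged 122.2 ± 9.57 CPM in INK-ATTAC and 95.4 ± 9.33 CPM in control libraries (SD, n = 8 and 7; log2 fold change 0.36, SE 0.07; edgeR, adjusted p = 0.515), and it was among the genes of lowest p in the group comparison. Mat2a and Mat2b, subunits of the enzyme that makes S-adenosylmethionine, gave -0.12 (SE 0.06) and -0.03 (SE 0.07). All 10 serine and glycine genes were tested, with 5 above and 5 below 0: Phgdh, which opens serine synthesis, gave 0.08 (SE 0.10), Psat1, the next enzyme, -0.00 (SE 0.08), Dld and Gcsh of the glycine cleavage system -0.09 (SE 0.11) and 0.07 (SE 0.07), and Slc6a9, a glycine transporter, 0.06 (SE 0.11). Between Xist classes Phgdh had the lowest adjusted p of all 77 genes, at a log2 fold change of -0.30 (SE 0.07; edgeR, adjusted p = 0.120).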

How the data were processed

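RNA-seq of 15 mouse RPE/choroid libraries was analysed, grouped by their titles. Per the labels' protocols, tissue went into TRIzol, RNA was purified on columns and cDNA was amplified with SMARTer. The submitters' processing notes name bcl2fastq, DRAGEN, limma, edgeR and the build GRCm38. The counting program, its settings and the annotation are not stated there. The authors deposited raw read counts per gene, with 40757 entries, of which 276 repeats were collapsed. The authors also deposited a limma table with log2 CPM, log2 fold change, p-value and adjusted p-value, and a moderated statistic, log odds and signed linear fold as scores that were not used.

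Here counts were scaled with TMM and tested with edgeR 4.0.16 (quasi-likelihood F-test, filterByExpr, R 4.3.3) over 17991 genes, two-sided, with Benjamini-Hochberg adjustment and a threshold of 0.05. The biological coefficient of variation was 0.265. The SE of a log2 fold change is its size over the square root of F. CPM use TMM library sizes, log2 CPM a prior count of 2, and RPKM the union exon length of GENCODE M 21. SMARTer reads without molecular identifiers are not independent molecules. No pair of libraries of a group agreed within sampling noise (lowest chi-square per gene 27.6). Correlations used 100000 permutations within groups. The scripts were tested on simulated data.

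The members and lists were chosen with earlier results of these data known. Genes named beside the members were, per pathway list, up to 4 of highest mean CPM and the one of lowest p, and the genes most like each member by r, 8 for Gamt and 3 for the others, without predicted or clone-based names. A few genes that this rule names are not reported here. Alternatives were DESeq2 1.42.0, limma-voom 3.58.1 with and without quality weights, RLE scaling, other filters, marker levels or Xist class as covariates, a replicate block and leaving out each library. The endothelial covariate, and leaving out each library in the interaction, were chosen after seeing the data.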

Additional observations from a re-analysis of the deposited data

Results flagged for a closer look

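Gatm in control 5 stood apart from the other controls, at 14.8 CPM against 20.7 CPM in the next lowest control, a gap of 0.609 of the group's range and past the 95% limit for 7 libraries. Control 5 also had the lowest Slc6a8 (9.70 CPM), Gamt (8.36 CPM) and Ckb (651.9 CPM) of the controls, but the highest Ckmt1 (45.5 CPM) and the second highest Oat (706.8 CPM) of them. It had the highest mitochondrial share of counts of all 15 libraries (3.67%, against a median of 2.51%) and the lowest level of myelinating glia markers of all 15 libraries (2.73 log2 CPM), whose part in this value was not tested. Without it, the Gatm log2 fold change of INK-ATTAC against control was 0.15. Chance sets apart about 1 in 20 groups in such a test, and 12 were examined.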

How the results depend on the processing

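Between the groups, Gamt, Gatm, Ckb and Ckmt1 kept a log2 fold change above 0 in all 30 settings, and no member passed in any. Their size moved by over 1.5 times in some: Ckb, at 0.15, was 0.047 with the lens covariate and 0.092 without control 5, Ckmt1, at 0.10, was 0.036 with the muscle covariate, 0.064 without INK-ATTAC 2 and 0.051 without control 2, and Gatm, at 0.23, was 0.14 without INK-ATTAC 5 and 0.15 without control 5. Oat turned to 0.012 with limma-voom quality weights, 0.0078 with the rod covariate and, leaving out 1 library, ranged from -0.047 to 0.023. Slc6a8 turned to 0.14 with the muscle covariate and ranged from -0.19 to 0.076 leaving out 1 library. The count of genes called was 6 with DESeq2 and 2 with limma-voom quality weights, and 0 in the others. Between Xist classes the count of genes was 183 with DESeq2, 206 with limma-voom quality weights and 20 with the lens covariate, and 15 to 38 leaving out 1 library. The count of members called was 0 with no filter (Ckb adjusted p = 0.0610) and with the rod, lens or RPE covariate, and 0 to 1 leaving out 1 library. Gamt turned to -0.0042 with the muscle, -0.026 with the lens, -0.061 with the RPE and -0.033 with the endothelial covariate, and ranged from -0.016 to 0.066 leaving out 1 library. Slc6a8 turned to -0.35 with the RPE covariate, and Gatm ranged from -0.0070 to 0.14 leaving out 1 library. Oat, at -0.17, stayed below 0 in all 27 settings, but with values as near 0 as -0.014. The interaction passed 0 to 1 genes leaving out 1 library, and the covariation 0 to 6 relations; it passed 1 with Xist class means also subtracted. In CPM without length, 13 of 15 pairs of members kept their order. The cause of these changes was not tested. The members had 367 or more counts per library, and the part of depth in the spread between libraries was not tested.

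Whether the numbers in the titles pair the libraries is not settled by these data. Deviations of same-numbered libraries correlated at -0.10 to 0.29, over 0.1 in 4 of 7 pairs. In those 4 pairs the same-numbered control was also the best match of its INK-ATTAC library. By the numbers in the short labels the correlations were -0.15 to 0.23, over 0.1 in 2 of 7 pairs. There the same-numbered control was the best match for number 2 alone. With a replicate block by title number, 0 genes passed and the Gamt log2 fold change was 0.39 (edgeR, adjusted p = 0.962). By the short label number the block gave 0 genes and 0.36 (adjusted p = 0.992). Without the block, 745 genes had an unadjusted p under 0.05, against 734 and 751 with these blocks.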
